A study of Mus musculus with 6 samples.

Results

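Podocytes are the epithelial cells that wrap the capillaries of the glomerulus, the filter of the kidney. Their foot processes interlock, and the gaps between them are bridged by the slit diaphragm, a cell junction built from nephrin and its adaptors. Behind the junction, an actin skeleton holds the foot processes in shape, and the transcription factor WT1 maintains the identity of the cell. A preparation of collecting duct cells should hold few podocytes, so that the RNA of their genes serves as a measure of glomerular cells carried along in it.

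The 8 podocyte genes described here were taken by symbol from the 55367 gene symbols measured in each library. They were the slit diaphragm and surface genes *Nphs1*, *Podxl* and *Ptpro*, the scaffold and adaptor genes *Cd2ap* and *Magi2*, the actin gene *Synpo*, the transcription factor *Wt1* and the phospholipase *Plce1*. All 8 passed the filter on low values, a level of 1 FPKM or more in 2 or more of the 6 libraries, as did 14862 genes in all. FPKM are fragments per kilobase of gene, scaled to the size of the library, so that levels of different genes are compared per length. *Nphs1*, *Synpo*, *Wt1* and *Ptpro* are held to be used in the kidney mainly by podocytes, while *Podxl* is also found in endothelium and *Cd2ap*, *Magi2* and *Plce1* in further cell types.

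RNA was sequenced from male mice, collected on Day115 in the spelling of the labels, in 3 groups with 2 libraries each. WT mice carried intact *Pkd1* (Pkd1+/+) and had received saline. ADPKD mice were Pkd1 fl/fl;Cre/Esr1+ animals in which tamoxifen had activated Cre, labelled Pkd1-/-, and had also received saline. ADPKD+MMPP mice had the same genotype and induction but were injected with MMPP, melanin-like nanoparticles that carry polyethylene glycol and chelated manganese. The kidneys were digested and the cells pulled out with beads coated for DBA, a plant lectin that binds collecting duct epithelium, though one label also speaks of RNA from whole kidney. The promoter driving Cre, tamoxifen in WT mice and whether a library held one animal or a pool are not given in the sources used here, so that P values measure only the spread between these libraries, which may be technical.

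Depth, recovered from the steps of the FPKM values, was 30.6 and 31.0 M reads in WT, 33.1 and 32.1 M in ADPKD and 11.8 and 10.9 M in ADPKD+MMPP. The ADPKD+MMPP libraries also stood apart in how their values were made. Of their low values, 7.67% and 7.17% corresponded to an odd number of reads, against 35.2% to 37.2% in the other 4 libraries. This difference and the treatment cannot be told apart. Whether a recovered read is the same unit in the treated libraries as in the others was not tested. Their depth and the read numbers given below may therefore not compare directly. Bulk RNA cannot tell fewer podocytes from less RNA per podocyte.

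Promoter windows of 300 bases around the RefSeq start (GRCm38.p6) are shown for 3 of these genes, because *Ptpro* had the profile closest to *Nphs1* among the 8 and *Cd2ap* had the profile farthest from it. Each is written on the strand of its gene. The capitals mark the letters GTGGGNG, searched on both strands, a shortened form of the G-rich sequence that WT1 and the EGR zinc finger proteins are known to bind. The *Nphs1* window lies on the plus strand at chr7:30459808-30460107, the *Ptpro* window on the plus strand at chr6:137252049-137252348, and the *Cd2ap* window on the minus strand at chr17:42876375-42876674.
Nphs1: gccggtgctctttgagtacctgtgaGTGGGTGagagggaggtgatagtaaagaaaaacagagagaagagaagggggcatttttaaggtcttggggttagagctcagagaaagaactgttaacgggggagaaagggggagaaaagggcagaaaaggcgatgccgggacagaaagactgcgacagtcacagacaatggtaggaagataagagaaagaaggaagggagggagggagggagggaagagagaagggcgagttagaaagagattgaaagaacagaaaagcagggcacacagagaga
Ptpro: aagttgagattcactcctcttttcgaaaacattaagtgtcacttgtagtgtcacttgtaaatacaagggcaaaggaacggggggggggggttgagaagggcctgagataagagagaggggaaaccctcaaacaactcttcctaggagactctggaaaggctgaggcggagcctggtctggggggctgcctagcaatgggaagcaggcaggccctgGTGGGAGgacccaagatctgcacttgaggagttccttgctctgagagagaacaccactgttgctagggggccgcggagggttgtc
Cd2ap: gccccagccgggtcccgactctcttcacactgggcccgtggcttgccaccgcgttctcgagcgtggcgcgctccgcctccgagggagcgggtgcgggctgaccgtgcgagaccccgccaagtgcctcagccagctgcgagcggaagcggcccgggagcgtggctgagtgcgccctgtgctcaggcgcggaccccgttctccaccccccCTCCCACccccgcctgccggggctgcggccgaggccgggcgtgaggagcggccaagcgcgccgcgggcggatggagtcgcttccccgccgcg
The letters start at base 26 of the *Nphs1* window and base 216 of the *Ptpro* window, both on the strand of the gene, and in *Cd2ap* at base 209 on the opposite strand (printed as its complement, CNCCCAC). A window was at hand for 5 of the 8 genes. *Magi2* had 2 windows, of which 1 held the letters, and the *Plce1* window did not hold them. Of all 32851 promoter windows 31.6% held the letters, so their presence in *Nphs1*, *Ptpro* and *Cd2ap* alike is a description of these windows only.

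In WT, all of these genes were measured far above a floor of 3 reads, and several were among the strongest signals of the preparation. *Podxl*, which codes for the charged surface protein podocalyxin, stood above 99.7% and 99.8% of the tested genes in the WT libraries. *Synpo*, *Nphs1*, *Wt1*, *Ptpro* and *Cd2ap* followed in that order of mean FPKM, and *Magi2* and *Plce1* came last. Neighbours in this order whose libraries overlapped were *Synpo* with *Nphs1*, *Wt1* with *Ptpro*, and *Magi2* with *Plce1*. *Nphs1* alone was backed by 12884 and 20225 reads. The samples are labelled as tubular epithelium, and *Aqp2*, the water channel that defines principal cells of the collecting duct, measured 1267 and 1776 FPKM in the same libraries.

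**Figure D1:**
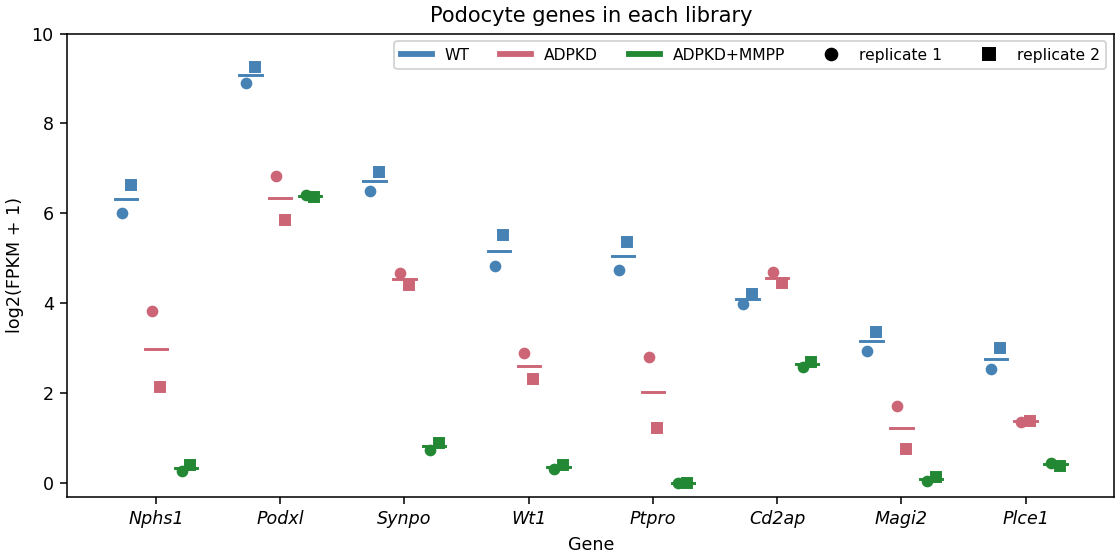
Level of each podocyte gene, as log2(FPKM + 1), in the 6 libraries. Circles are replicate 1, squares replicate 2 and short lines the mean of a group; both ADPKD libraries lie below both WT libraries for every gene but *Cd2ap*, and both ADPKD+MMPP libraries lie lowest for every gene but *Podxl*.

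The comparison of ADPKD with WT asked whether loss of *Pkd1* went along with a different content of podocyte RNA. It did for most of the list. Of the 8 genes, 7 fell and none rose, with *Cd2ap* as the exception, where 12.5% of all tested genes were called lower and 14.2% higher. A call required a fold change of at least 1.5 and an unadjusted P under 0.05 in limma, and the adjusted p given below are corrected over all 14862 genes. The median log2 change of the 8 genes was -2.37, against 0.03 over all tested genes.

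Among the surface and slit diaphragm genes, *Nphs1* codes for nephrin, the adhesion molecule that spans the slit. On chromosome 7 from 30458315 to 30487223 (plus strand, GRCm38; RefSeq places its start within this span), it measured 63.7 and 98.7 FPKM in WT and 13.3 and 3.42 FPKM in ADPKD. The groups did not overlap, and the second ADPKD library was the lower of its pair. The mean fell from 81.2 ± 24.8 to 8.37 ± 6.99 FPKM (SD, n = 2), a log2 change of -3.34 ± 0.55 (SE, adjusted p = 0.0109). The size rested on which ADPKD library was used, with a change of -4.18 without ADPKD replicate 1 and -2.49 without ADPKD replicate 2.

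*Podxl*, on chromosome 6 from 31519488 to 31563981 (minus strand), measured 475 and 609 FPKM in WT and 114 and 56.8 FPKM in ADPKD. It was the most abundant of the 8 genes in every library. The mean fell from 542 ± 94.6 to 85.2 ± 40.2 FPKM (SD, n = 2), a log2 change of -2.73 ± 0.33 (SE, adjusted p = 0.00520). *Ptpro*, which codes for the receptor tyrosine phosphatase GLEPP1 of the foot process membrane, lies on the same chromosome from 137252319 to 137463233 (plus strand). It measured 25.7 and 40.2 FPKM in WT and 6.02 and 1.34 FPKM in ADPKD. Its mean fell from 33.0 ± 10.3 to 3.68 ± 3.31 FPKM (SD, n = 2), a log2 change of -3.03 ± 0.52 (SE, adjusted p = 0.0119). As for nephrin, the second ADPKD library was the lower, and the change was -3.83 without ADPKD replicate 1 and -2.24 without ADPKD replicate 2.

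The adaptors of the slit diaphragm went different ways. *Magi2*, a membrane scaffold that binds nephrin, spans chromosome 5 from 19227036 to 20704792 (plus strand). It measured 6.73 and 9.36 FPKM in WT and 2.29 and 0.695 FPKM in ADPKD, with no overlap between the groups. Its mean fell from 8.04 ± 1.86 to 1.49 ± 1.13 FPKM (SD, n = 2), a log2 change of -1.92 ± 0.33 (SE, adjusted p = 0.0122). *Cd2ap*, an adaptor that links nephrin to the actin skeleton and to endocytosis in many cell types, lies on chromosome 17 from 42792951 to 42876665 (minus strand). It measured 14.8 and 17.4 FPKM in WT and 24.9 and 20.9 FPKM in ADPKD, so that both ADPKD libraries lay above both WT libraries. Its log2 change of 0.48 ± 0.15 (SE, adjusted p = 0.0624) stayed under the fold threshold and was not called, at an unadjusted P of 0.0186. It was called higher when WT replicate 2 or ADPKD replicate 2 was left out, at 0.59 and 0.60.

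*Synpo* codes for synaptopodin, an actin-binding protein of the foot processes, and lies on chromosome 18 from 60593973 to 60660142 (minus strand). It measured 89.8 and 120 FPKM in WT and 24.5 and 20.1 FPKM in ADPKD. The ADPKD libraries were close to each other here, and the mean fell from 105 ± 21.4 to 22.3 ± 3.13 FPKM (SD, n = 2), a log2 change of -2.18 ± 0.19 (SE, adjusted p = 0.00331). *Wt1*, on chromosome 2 from 105126529 to 105173616 (plus strand), measured 27.6 and 44.6 FPKM in WT and 6.39 and 4.02 FPKM in ADPKD. Its mean fell from 36.1 ± 12 to 5.21 ± 1.68 FPKM (SD, n = 2), a log2 change of -2.57 ± 0.28 (SE, adjusted p = 0.00439). *Plce1* codes for phospholipase C epsilon, a signalling enzyme whose loss causes nephrotic disease in people, and lies on chromosome 19 from 38481109 to 38785030 (plus strand). It measured 4.79 and 7.01 FPKM in WT and 1.59 and 1.60 FPKM in ADPKD, and its log2 change of -1.39 ± 0.18 (SE, adjusted p = 0.00569) was the smallest of the 7 that fell.

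**Figure D2:**
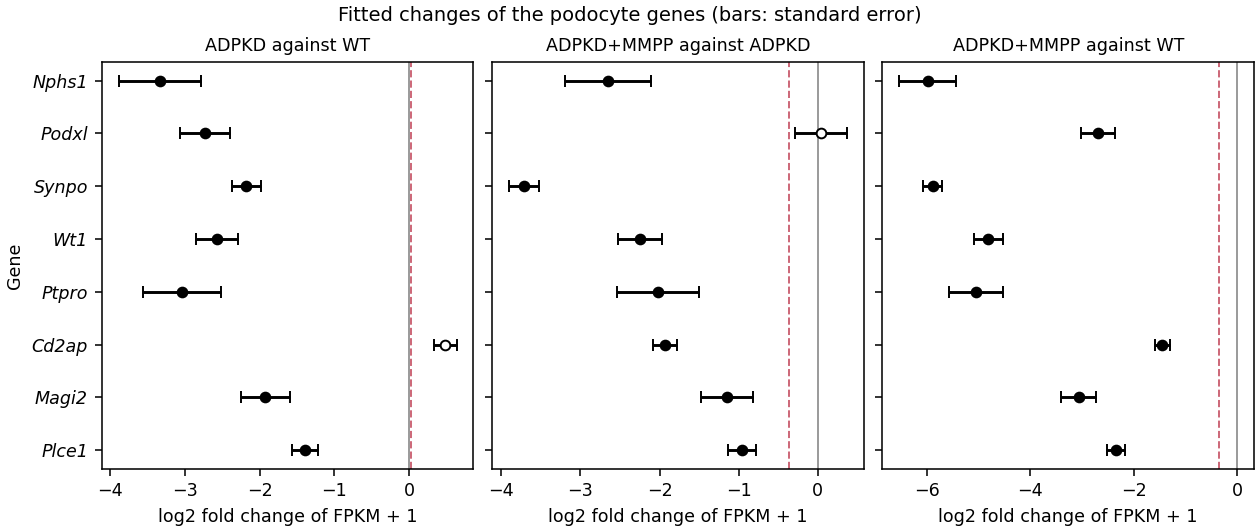
Fitted log2 change of FPKM + 1 for each podocyte gene in the 3 comparisons. Points are limma estimates, bars their standard errors, filled points are called, open points are not, and the dashed line is the median of all 14862 tested genes; *Cd2ap* in ADPKD against WT and *Podxl* in ADPKD+MMPP against ADPKD are the open points. The points of *Ptpro* in the treated comparisons rest on the 1 added to FPKM, since it was listed at 0 there.

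The 7 genes did not fall by one common factor. As a share of the WT mean, the first ADPKD library retained between 16.4% (*Nphs1*) and 28.5% (*Magi2*) of these genes. The second retained between 4.06% (*Ptpro*) and 27.1% (*Plce1*). The libraries thus differed little for *Synpo*, at 23.4% and 19.2%, and *Plce1*, at 26.9% and 27.1%, but by several fold for *Nphs1*, at 16.4% and 4.21%, and *Magi2*, at 28.5% and 8.65%. The replicates also differed within WT, where the second library was higher for all 8 genes, from 1.17 times (*Cd2ap*) to 1.61 times (*Wt1*). Over all tested genes the median of this ratio was 1.0 in WT and 0.974 in ADPKD. Markers of principal cells, the main cells of the collecting duct, showed medians of 1.21 in WT and 0.368 in ADPKD, and markers of endothelium 0.871 and 0.824. In both groups the replicates that were higher for most podocyte genes were therefore also higher for principal cell markers.

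The 7 genes that fell were those for which both ADPKD libraries lay below both WT libraries, a pattern seen in 31.5% of all tested genes. In rank among tested genes, *Nphs1* moved from above 95.3% and 97.1% of them in WT to above 74.4% and 39.9% in ADPKD. *Podxl* stayed among the abundant genes, above 97.3% and 94.4% in ADPKD.

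A wider list of 43 podocyte genes gave a similar picture with more exceptions. Of its 41 tested genes, 25 fell, 2 rose and 14 were not called, with a median log2 change of -1.06. *Kirrel2* and *Kirrel3* were too low to test. Over all tested genes 12.5% were called lower and 14.2% higher, with a median of 0.03. Among the slit diaphragm and membrane genes 7 of 10 fell, among actin and cytoskeleton genes 6 of 9, and among transcription factors and cell cycle genes 6 of 8. Among secreted, matrix and matrix receptor genes 6 of 14 fell and 2 rose.

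*Rhpn1*, a gene of the podocyte cytoskeleton, measured 73.5 and 101 FPKM in WT and 13.4 and 3.81 FPKM in ADPKD. Its log2 change was -3.38 ± 0.50 (SE, adjusted p = 0.00828), or -4.18 without ADPKD replicate 1 and -2.59 without ADPKD replicate 2. *Lmx1b*, a LIM homeodomain factor needed for podocyte development, was at -2.74 ± 0.37 (SE, adjusted p = 0.00679). The genes that rose were *Pdpn*, at 1.33 ± 0.23 (SE, adjusted p = 0.0117), which codes for the surface protein podoplanin that lymphatic and some stromal cells also use, and *Lama5*, at 0.89 ± 0.18 (SE, adjusted p = 0.0203), a laminin chain of many epithelial basement membranes. The smallest fall among those called was *Tjp1*, the tight junction protein ZO-1 of epithelia in general, at -0.85 ± 0.14 (SE, adjusted p = 0.0103). The matrix genes *Col4a3*, *Col4a4* and *Col4a5*, chains of the collagen of the glomerular basement membrane, were not called, at -0.17, 0.45 and 0.05, and neither was *Actn4*, an actin crosslinker, at -0.16.

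Markers of endothelium and of mesangium and pericytes moved in the same direction as the podocyte genes. These lists are not confined to glomerular cells. In this comparison 12.5% of all tested genes were called lower and 14.2% higher. All 9 endothelial markers fell, with a median log2 change of -1.71, and 6 of 7 markers of mesangium and pericytes fell, with a median of -1.12 (*Rgs5*, at -0.58, was not called). Summed FPKM of the 8 podocyte genes were 708 and 946 in WT and 193 and 109 in ADPKD, or 23.3% and 13.2% of the WT mean. Of these sums *Podxl*, also found in endothelium, made 475 and 609 FPKM in WT and 114 and 56.8 FPKM in ADPKD. The endothelial sum stood at 36.8% and 31.7% of its WT mean and the mesangial sum at 37.2% and 26.3%. Both ADPKD libraries thus held a lower share of the podocyte sum than of either other sum, a difference that was not tested.

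Tubular and interstitial markers did not move as one, where 12.5% of all tested genes were called lower and 14.2% higher. Of 7 tested principal cell markers 1 rose (*Aqp4*, at 1.26) and 6 were not called, and their sum was 102% and 38.8% of the WT mean. All 7 intercalated cell markers fell, with a median of -2.43, and so did 3 of 4 markers of the thick limb and distal convoluted tubule. Of 11 proximal tubule markers 5 rose and 1 fell. All 6 tested macrophage markers rose, with a median of 1.84, and 5 of 6 fibroblast markers rose, with a median of 2.54. Markers of several cell types thus differed between these libraries at once, and their part in the lower podocyte genes was not tested.

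**Figure D3:**
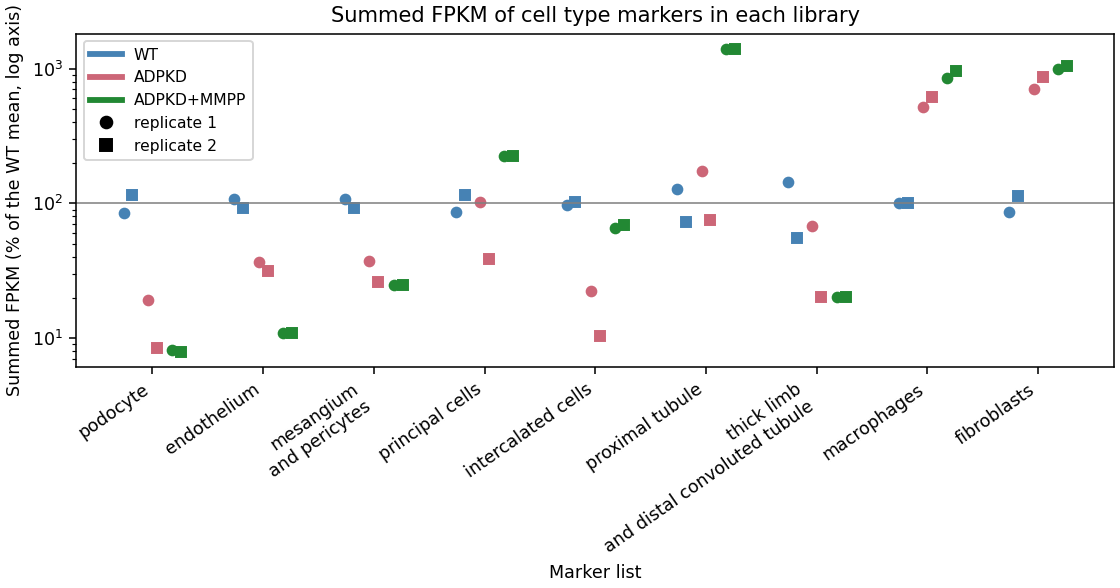
Summed FPKM of 9 marker lists in each library as a percent of the WT mean of the list, on a log axis. Circles are replicate 1 and squares replicate 2; the podocyte sum is 19.2% and 8.39% in ADPKD and 8.17% and 7.94% in ADPKD+MMPP, and the endothelial and mesangial sums also lie below the WT line in all 4 of these libraries. The podocyte marker list shares 5 genes with the 8 described here.

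ADPKD+MMPP was compared with ADPKD to see how the same genes stood after treatment. Again 7 of the 8 fell in limma and none rose, at this or at an unadjusted P under 0.05 without the fold threshold, this time with *Podxl* as the exception. Here 43.0% of all tested genes were called lower and 27.9% higher, so that a fall is a common outcome in this comparison. That background depended on the scaling, with 4143 genes higher and 6397 lower as deposited but 5363 higher and 4577 lower after quantile normalization. The comparison shares its ADPKD libraries with the one above. The median log2 change was -1.98 over the 8 genes (-1.93 without *Ptpro*) and -0.36 over all tested genes.

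*Nphs1* measured 0.205 and 0.332 FPKM in the ADPKD+MMPP libraries, from 16 and 24 reads. Both lay below the ADPKD libraries, and the log2 change was -2.65 ± 0.55 (SE, adjusted p = 0.00571), or -1.80 without ADPKD replicate 1 and -3.50 without ADPKD replicate 2. *Synpo* measured 0.675 and 0.865 FPKM, from 76 and 90 reads, a log2 change of -3.72 ± 0.19 (SE, adjusted p = 3.80e-05). *Wt1* measured 0.246 and 0.325 FPKM, from 18 and 22 reads, a log2 change of -2.24 ± 0.28 (SE, adjusted p = 0.000745). These genes, abundant in WT, had thus dropped to the low end of the tested genes, with *Synpo*, the highest of them, above 21.3% and 25.0%.

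After treatment, both libraries listed *Ptpro* at 0. Such a value need not mean absence, because *Rpl17*, a ribosomal protein gene used by every cell, was also listed at 0 there after 316 and 400 FPKM in ADPKD. Of the 3534 protein-coding genes above 10 FPKM in all WT and ADPKD libraries, 5 were listed at 0 in both treated libraries. *Ptpro* is counted among the 7, but no fold is given for it.

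*Podxl* measured 84.1 and 80.8 FPKM in the treated libraries, between the ADPKD values of 114 and 56.8. Its log2 change was 0.04 ± 0.33 (SE, adjusted p = 0.925), with 0.53 without ADPKD replicate 1 and -0.46 without ADPKD replicate 2, so that the direction rested on 1 library. *Cd2ap*, which had not fallen in ADPKD, measured 4.99 and 5.51 FPKM, from 934 and 954 reads, a log2 change of -1.93 ± 0.15 (SE, adjusted p = 0.000119). *Magi2* measured 0.0373 and 0.0969 FPKM, from 5 and 12 reads. Its log2 change of -1.15 ± 0.33 (SE, adjusted p = 0.0204) lost its call when either treated library was left out, at -1.11 and -1.19. *Plce1* measured 0.371 and 0.309 FPKM, a log2 change of -0.95 ± 0.18 (SE, adjusted p = 0.00369). Because 1 is added to FPKM before taking logs, the changes of these low genes are understated.

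Changes after treatment moved across all genes with the structure of the gene model. Among tested protein-coding genes in which up to 20% of exon bases belong to exactly 1 annotated transcript (GENCODE vM21), the median log2 change was -1.61, rising to -1.20, -0.55, 0.41 and 1.05 in the following bins of 20% each. In ADPKD against WT, the median of every bin lay within 0.06 of 0. Of the 8 genes, *Synpo* had 12 transcripts and 19.4% of such bases, and *Podxl* had 2 transcripts and 95.7%. *Ptpro* had 21.2%, *Magi2* 33.6%, *Nphs1* 41.8%, *Plce1* 47.6%, *Wt1* 50.1% and *Cd2ap* 67.0%.

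When each library was centred on genes with a like share of such bases, 5 of the 8 genes were called lower after treatment. Of the 12375 protein-coding genes under this centring, 3034 were called lower and 4176 higher. *Nphs1*, *Wt1*, *Synpo* and *Cd2ap* stayed lower, at -1.54, -1.60, -1.93 and -2.14. *Podxl* turned to -1.04 and was called lower. *Magi2* and *Plce1*, at 0.24 and -0.07, were not called, and neither was *Ptpro*. In ADPKD against WT the same centring left 7 genes called lower, as were 1679 of all 12375, with *Nphs1* at -3.31 and *Podxl* at -2.85.

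**Figure D4:**
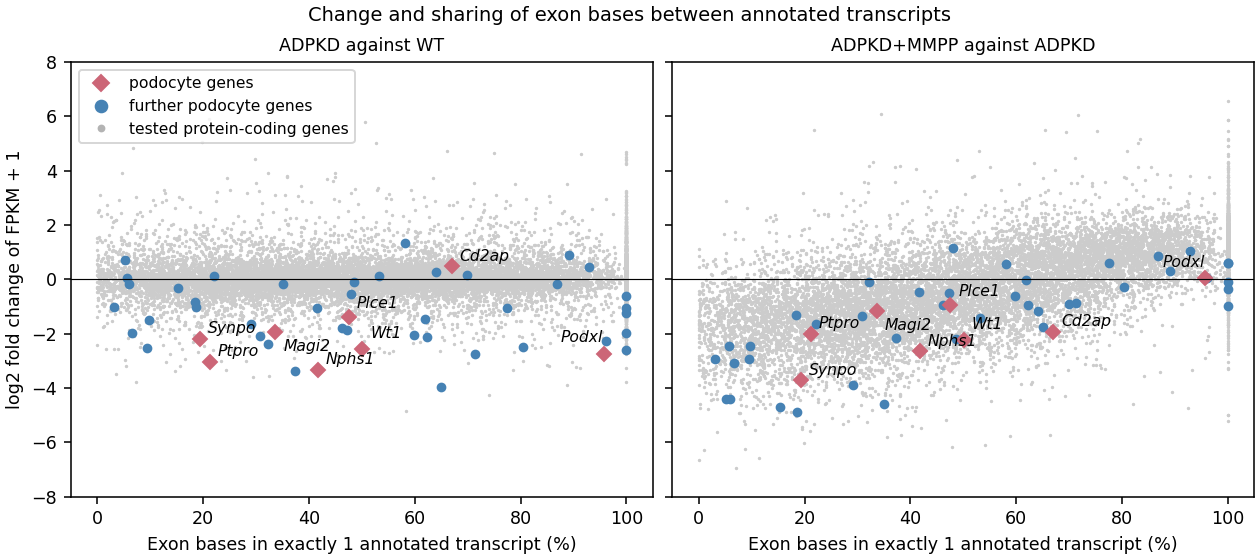
Log2 change of FPKM + 1 against the percent of exon bases found in 1 annotated transcript and no other, for ADPKD against WT (left) and ADPKD+MMPP against ADPKD (right). Grey points are tested protein-coding genes, blue circles the further podocyte genes and red diamonds the 8 podocyte genes; the grey cloud is level on the left, with bin medians within 0.06 of 0, and climbs on the right, with bin medians from -1.61 to 1.05.

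Over all tested genes 43.0% were called lower and 27.9% higher after treatment, with a median log2 change of -0.36. Of the 41 further podocyte genes, 23 fell after treatment, 5 rose and 13 were not called, with a median log2 change of -0.95. The lowest were *Myo1e*, a myosin motor, at -4.88 ± 0.12, *Itga3*, the integrin chain that binds podocytes to laminin, at -4.70 ± 0.11, and *Actn4* at -4.60 ± 0.12 (SE, adjusted p = 1.95e-05 for each). The highest were *Nck2*, an adaptor that binds nephrin, at 1.14 ± 0.16 (SE, adjusted p = 0.00107), *Col4a4* at 1.05 ± 0.13 (SE, adjusted p = 0.000608) and *Col4a3* at 0.85 ± 0.16 (SE, adjusted p = 0.00351). The remaining genes that rose, *Foxc1* at 0.62 and *Lamb2* at 0.60, are named after their values were seen.

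The same split by gene model ran through the podocyte genes as a whole. Of the 11 podocyte genes of both lists with more than 80% of exon bases in exactly 1 transcript, a limit chosen after the values were seen, 1 fell after treatment (*Foxc2*, at -0.98), 3 rose and 7 were not called, with a median of 0.06. The median of all 2708 tested protein-coding genes above that limit was higher, at 1.05. Of the other 38 podocyte genes, 29 fell and 2 rose, with a median of -1.70. Over all tested protein-coding genes the bins up to 80% had medians from -1.61 to 0.41. In ADPKD against WT the 2 podocyte sets gave medians of -1.24 and -1.42, with 7 of 11 and 25 of 38 genes lower.

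Against WT, all 8 podocyte genes were lower in ADPKD+MMPP, where 43.8% of all tested genes were called lower and 30.1% higher. After quantile normalization 5482 genes were called higher and 4885 lower, against 4477 and 6507 as deposited, and the 8 genes remained called. The median log2 change was -3.94 (-3.07 without *Ptpro*), against -0.36 over all tested genes. *Nphs1* was at -5.99 ± 0.55 (SE, adjusted p = 0.000193), *Synpo* at -5.89 ± 0.19 (SE, adjusted p = 1.62e-05) and *Wt1* at -4.81 ± 0.28 (SE, adjusted p = 4.49e-05). As a share of the WT mean, the treated libraries held 0.252% and 0.409% of *Nphs1*, 0.643% and 0.825% of *Synpo*, and 0.682% and 0.901% of *Wt1*.

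*Podxl*, at 15.5% and 14.9% of the WT mean, was at -2.69 ± 0.33 (SE, adjusted p = 0.000617). *Cd2ap*, at 31.0% and 34.2%, was at -1.45 ± 0.15 (SE, adjusted p = 0.000293). *Plce1*, at 6.28% and 5.24%, was at -2.35. *Magi2* held 0.464% and 1.21% of the WT mean, about as little as *Synpo* and *Wt1*, and its log2 change of -3.07 is held down by the 1 added to a gene of 8.04 FPKM in WT. With the same centring, all 8 stayed called, as 3318 of 12375 genes were called lower, with *Nphs1* at -4.85 and *Cd2ap* at -1.67, but *Podxl*, at -3.89, then lay close to *Synpo* at -3.96.

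Over all tested genes 43.8% were called lower than in WT and 30.1% higher. Of the further podocyte genes, 35 of 41 were lower than in WT, 5 higher and 1 (*Lamb2*, at -0.43) not called. *Myo1e* and *Htra1*, a secreted protease, were among the lowest, at -5.88 ± 0.12 and -5.53 ± 0.33. *Pdpn*, *Col4a4* and *Lama5* had the highest, at 1.90 ± 0.23, 1.5 ± 0.13 and 1.20 ± 0.18, and *Col4a3* at 0.68 and *Nck2* at 0.60 were the others that were higher.

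Summed over the 8 genes, the treated libraries held 90.7 and 88.2 FPKM, of which *Podxl* alone made 84.1 and 80.8. The endothelial sum was 10.9% and 11.0% of the WT mean and the mesangial sum 24.6% and 24.8%. Against ADPKD, 43.0% of all tested genes were called lower and 27.9% higher. In that comparison 6 of 9 endothelial markers fell and 3 were not called, while of 7 mesangial and pericyte markers 4 fell and 2 rose (*Rgs5* and *Notch3*, at 1.09 and 1.07). *Rgs5* and *Notch3* had 94.0% and 90.3% of exon bases in exactly 1 transcript. Tested protein-coding genes with over 80% had a median of 1.05, near these rises, while *Serpine2*, with 83.8%, fell at -1.38. All marker calls here are given without centring by exon share. Duct and tubule markers did not move as one. The principal cell sum was 223% and 224% of the WT mean, with 4 of 7 markers higher and 2 lower than in ADPKD. Of 7 intercalated cell markers 6 rose, with a sum of 65.3% and 68.7% of the WT mean against 22.4% and 10.3% in ADPKD. Of 11 proximal tubule markers 7 rose and 1 fell, with a sum of 1396% and 1404%. Of the thick limb and distal convoluted tubule markers 2 rose and 1 fell, and their sum was 20.3% and 20.1%, against 68.1% and 20.1% in ADPKD. Of the macrophage markers 2 rose and 4 fell, and of the fibroblast markers 2 rose and 2 fell. Depth, the making of the values and these marker sums all moved with the treatment, and their part in the podocyte values was not tested.

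Over the 6 libraries, the profile of *Nphs1* was most like that of *Ptpro* among the 8 genes, at a root mean square difference of 0.392 in log2(FPKM + 1) about each gene's mean. *Wt1* followed at 0.587 and *Synpo* at 0.669, then *Magi2* at 1.21, *Podxl* at 1.45, *Plce1* at 1.57 and *Cd2ap* at 2.04. Among tested genes outside the podocyte lists, the nearest were *Atp2a3* at 0.302, *Itga8* at 0.350, *Hopx* at 0.550, *Mir8116* at 0.556 and *Slc9a3r2* at 0.577. These differences include both treated libraries. *Ptpro* and *Mir8116* were listed at 0 in both of them and *Hopx* in the second, a value that need not mean absence. *Itga8*, an integrin chain on the mesangial marker list, measured 135 and 118 FPKM in WT, 22.9 and 3.88 in ADPKD and 1.40 and 1.27 in ADPKD+MMPP. *Atp2a3*, a calcium pump, measured 84.0 and 68.9, then 16.3 and 4.03, then 0.192 and 0.625 FPKM. Unlike *Nphs1*, both were higher in the first WT library than in the second.

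Reads could be shared with overlapping gene models for *Nphs1* and *Magi2*, and the strand setting of the counting is not given in the sources used here. *Nphs1os*, on the opposite strand of *Nphs1*, measured at most 0.651 FPKM. *Rps12-ps4*, a ribosomal pseudogene also on that strand, measured from 3.13 to 6.99 FPKM in WT and ADPKD and was listed at 0 in the treated libraries. *Gm29254*, on the strand of *Magi2*, measured at most 0.148 FPKM.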

How the data were processed

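RNA-seq of DBA-positive mouse kidney cells was analysed in 6 libraries, 2 each of WT, ADPKD and ADPKD+MMPP. Per the submitters' processing notes and the methods, the authors aligned reads to mm10 with HISAT2 2.1.0, counted them with featureCounts 1.6.0 and deposited FPKM per gene symbol. The annotation and the FPKM formula are not given in the sources used here, and since the files hold no counts the count test of the methods was not used. Of 55367 symbols, 53186 matched 1 gene of GENCODE vM21, whose exon lengths turned FPKM into reads; from 98.3% to 98.9% of low values came out whole within 0.05 reads. The count of 2 libraries a group limits the precision.

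Genes reaching 1 FPKM in 2 or more libraries entered a two-sided limma test (version 3.58.1, R 4.3.3) of log2(FPKM + 1), with all 6 libraries in a single fit. The P values of ADPKD against WT therefore also draw on the spread between the ADPKD+MMPP libraries, whose values were made differently. A call needed a fold change of at least 1.5 and an unadjusted P under 0.05, the thresholds of the methods; Benjamini-Hochberg adjusted p over all tested genes are given beside it. The scripts were tested on simulated data. All 8 genes are named, with the 3 highest and 3 lowest called changes of the further list and the 5 genes nearest to *Nphs1*; a gene chosen by this rule is not reported here. The members, lists and alternatives (pseudocount, filter, scaling, trend, groups in the fit, thresholds, replicate block, centring by exon share and leaving out each library) were chosen with earlier results of these data known.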

Additional observations from a re-analysis of the deposited data

How the results depend on the processing

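Of the 8 genes, 7 were called lower in ADPKD against WT under every alternative run, and *Cd2ap* was called higher only without WT replicate 2 or ADPKD replicate 2. In ADPKD+MMPP against ADPKD between 5 and 7 were called. Quantile normalization left 5 (*Magi2* at -0.46 and *Plce1* at -0.28 lost the call), as did centring by exon share, which turned *Podxl* to -1.04 and *Magi2* to 0.24, and a fold change of at least 2, or leaving out either treated library, left 6. In ADPKD+MMPP against WT all 8 were called throughout. For the single genes, 142, 135 and 144 of 144 values in the 3 comparisons kept their side of the threshold. In 2 cases the direction changed where a value was called, *Podxl* and *Magi2* after treatment, both with centring by exon share. A change of direction between values that were not called was counted as kept. *Podxl* without ADPKD replicate 2, at -0.46 against 0.04 after treatment, is such a case.

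The median change of the 8 genes moved with a pseudocount of 0.1, to -3.41 against ADPKD and -6.07 against WT, and with rescaling to a common sum, to -2.87 and -5.45. That rescaling also moved the median of all tested genes to -0.73 and -0.80, so relative to it the 8 genes stayed lower. Leaving out 1 library gave medians from -2.64 to -2.10 in ADPKD against WT, from -2.29 to -1.52 after treatment and from -4.21 to -3.67 against WT; a group left with 1 library was assumed to vary like the others. With a replicate block, 7, 7 and 8 genes were called, as without it. Replicate numbers did not pair the libraries, with correlations of replicate differences of 0.129 between WT and ADPKD, -0.008 between WT and ADPKD+MMPP and 0.014 between ADPKD and ADPKD+MMPP. The 5 to 24 reads of *Magi2*, *Wt1* and *Nphs1* in treated libraries limit their values.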
